A study of Mus musculus with 9 samples.

Results

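The 6 genes described here, Gdnf, Gfra1, Ret, Etv5, Bcl6b and Lhx1, encode the ligand, both receptor parts and a set of target transcription factors of GDNF signalling in the testis. They were taken by name, as every array row whose annotated symbol was exactly 1 of these names. That gave 7 of the 21780 rows with a single gene and 6 of the 19935 genes measured. Etv5 had 2 rows, which were averaged, and the other genes had 1 row each. Whole testis of untreated male Swiss albino mice from an inbred colony was profiled at 8, 16 and 24 days of age, with 3 arrays per age that the design text calls biological replicates. The ages lie in the first wave of spermatogenesis, and the design names the comparisons 16 with 8, 24 with 16 and 24 with 8 days. The deposited values are on a log2 scale on which 0 stands for the middle array of the 9 in that row, so they rank arrays within a gene and no level can be compared between genes. Whether a marker is absent cannot be read from such values. In whole testis, fewer cells of a type and less RNA per cell cannot be told apart.

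GDNF is a growth factor of the TGF-beta superfamily that Sertoli cells and peritubular myoid cells secrete. It binds the membrane-anchored co-receptor GFRA1 on undifferentiated spermatogonia, and the pair engages the receptor tyrosine kinase RET, which signals through SRC family kinases, PI3K and AKT, and RAS and MAP kinases. In cultured mouse spermatogonia GDNF raises the transcripts of Etv5, Bcl6b and Lhx1, and the pathway is known for the self-renewal of spermatogonial stem cells. Etv5 is also transcribed in Sertoli cells.

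Each of the 6 genes had its highest mean at 8 days, and 5 of them were lower at 24 than at 8 days by the test. Over all genes 35.2% were lower by that test, and 69.5% had a change below 0 over that span. The share of all genes with their highest mean at 8 days was not counted. A 0 printed without decimals marks a blank cell, which stands for the row median. Gdnf, the ligand, had values of 0.67, 0.80 and 0.32 at 8 days, 0, -0.02 and 0.21 at 16 days, and -0.53, -0.37 and -0.25 at 24 days (replicates 1, 2 and 3 in each case, here and below). The ages did not overlap at any step, and the 0.21 of replicate 3 at 16 days lay closest to the lowest array of 8 days.

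Gfra1, the co-receptor that binds GDNF, had values of 0.61, 0.89 and 0.44 at 8 days, 0.05, -0.14 and 0 at 16 days, and -0.63, -0.64 and -0.42 at 24 days. Its ages were separated at both steps, by gaps of 0.39 and 0.28 between the nearest arrays.

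Ret, the signalling receptor, had values of 0.69, 0.68 and 0.37 at 8 days, 0, -0.44 and 0.06 at 16 days, and -1.31, -1.04 and -0.78 at 24 days. It had the widest span of the 6 genes. The 24-day arrays lay apart from both younger ages, while at 16 days replicate 2 stood below the other two.

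Etv5, an ETS-family transcription factor that spermatogonial stem cells need, had values of 0.49, 0.62 and 0.32 at 8 days, 0, -0.16 and 0.11 at 16 days, and -0.44, -0.12 and -0.22 at 24 days. The 8-day arrays were all above the rest, while those of 16 and 24 days overlapped. Its 2 rows gave 24-day values of -0.48, -0.19 and -0.20 in row 10363901 and -0.40, -0.04 and -0.24 in row 10438626. The 10 nearest named rows of the first all belonged to genes of chromosome 10, although Etv5 lies on chromosome 16, where all 9 neighbours of the second belonged.

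Bcl6b, a zinc finger repressor related to BCL6, had values of 0.14, 0.51 and 0.18 at 8 days, -0.19, -0.23 and 0 at 16 days, and -0.06, -0.50 and 0.15 at 24 days. Its 24-day arrays spread over the whole range of 16 days and passed the lowest 8-day value, and the SD was 0.20 at 8 days, 0.12 at 16 days and 0.33 at 24 days.

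Lhx1, a LIM homeobox factor, had values of 0.51, 0.29 and 0.09 at 8 days, 0, 0.24 and -0.15 at 16 days, and -0.24, -0.28 and -0.19 at 24 days. It had the smallest span, 0.79, and its 24-day arrays were the tightest of any gene and age here, with an SD of 0.05. The 8- and 16-day arrays overlapped.

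**Figure D1:**
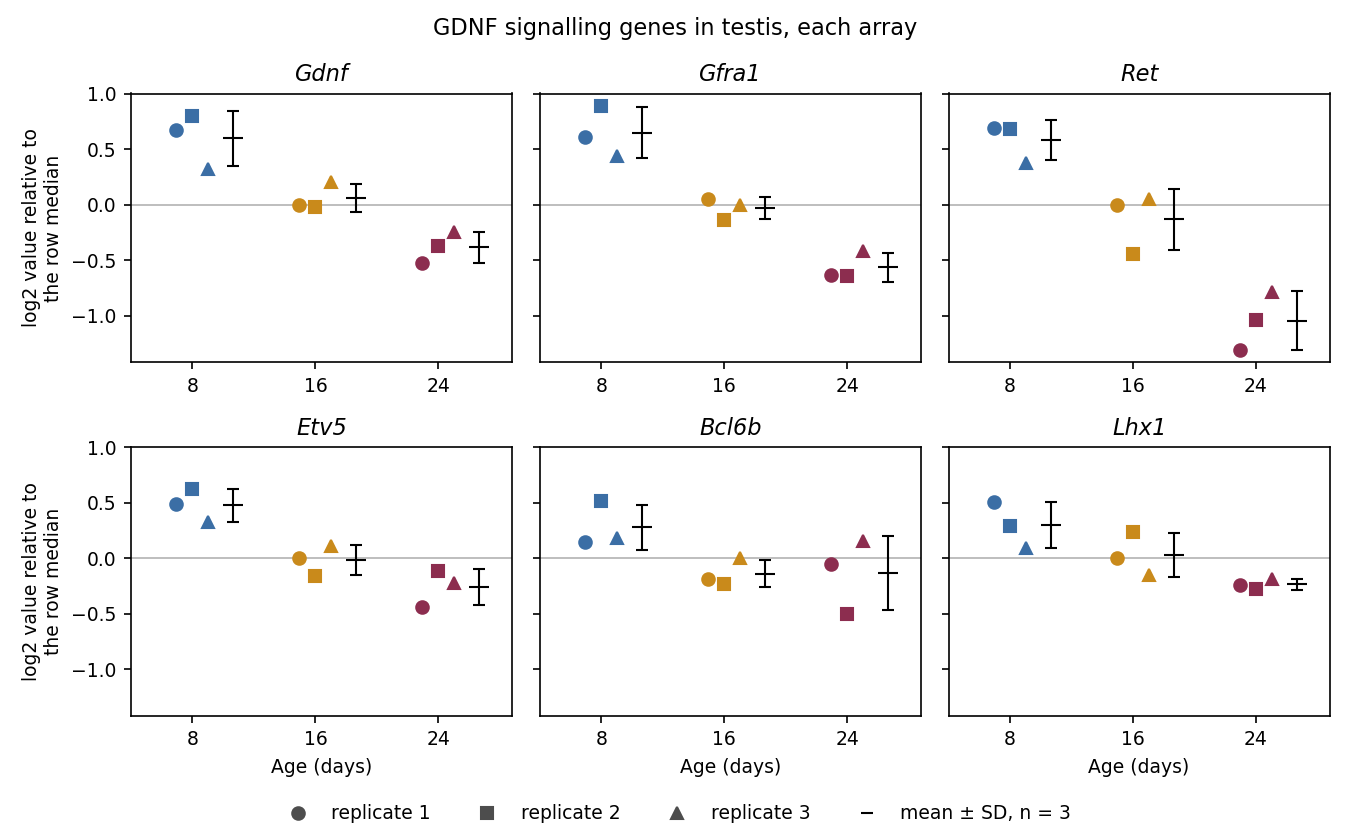
Value of each of the 6 genes in every array (vertical axis, log2 relative to the row median) at 8, 16 and 24 days (horizontal axis), with the replicate as the symbol and the mean ± SD of 3 arrays in black. Gdnf, Gfra1 and Ret step down at both ages without overlap, and Bcl6b at 24 days spreads from -0.50 to 0.15.

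The arrays of an age kept a similar order in most of the 6 genes. At 8 days replicate 3 was the lowest array in 5 of the 6, all but Bcl6b. At 16 days replicate 2 was the lowest in 5 of the 6, and it was the highest for Lhx1. At 24 days replicate 3 was the highest in 5 of the 6, all but Etv5. Replicate 2 of 16 days and replicate 1 of 8 days also stood apart in 1027 olfactory receptor genes, a family transcribed mainly in the nose: their median was 0.17 in each of these arrays, against -0.05 to 0.03 in the other 7. The median of all genes was also raised in replicate 1 of 8 days, at 0.12, and was 0.02 in replicate 2 of 16 days. Whether these shifts play a part in the values of the 6 genes was not tested. Results without both arrays are given where a call of the 6 genes is lost or a count of called genes changes by over 1.5 times.

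Between 8 and 16 days, the ligand, both receptor parts and Etv5 fell, which is 4 of the 6 genes, and none rose. A gene is called, and is said to have risen or fallen, where its limma p adjusted over all genes is under 0.05. Over all 19935 genes 24.7% were called, of which 14.3% fell and 10.4% rose (percent of all genes). Gdnf fell by 0.53 ± 0.13 on the log2 scale, to 1.45-fold lower at 16 days (SE, 3 arrays per age; limma adjusted p 0.0157). Gfra1 fell by 0.68 ± 0.12, or 1.60-fold (adjusted p 0.00337). Ret fell by 0.71 ± 0.17, or 1.64-fold (adjusted p 0.0124), and Etv5 by 0.49 ± 0.12, or 1.41-fold (adjusted p 0.0130). The changes of these receptor genes were among the lower values of the comparison: 3.85% of genes had a change at or below that of Ret, and 4.59% at or below that of Gfra1. Bcl6b changed by -0.42 (95% interval -0.79 to -0.05) with an adjusted p of 0.101, and Lhx1 by -0.27 (-0.55 to 0.02) with an adjusted p of 0.171. The arrays of 16 days lay below those of 8 days in 5 of the 6 genes, all but Lhx1, as in 21.5% of all genes, while 14.7% of genes had all arrays of 16 days above.

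The calls of Gdnf and Etv5 in this first interval depended on single arrays. Those of Gfra1 and Ret were kept with each array left out in turn (limma adjusted p up to 0.0132 and 0.046). Without replicate 1 of 8 days and replicate 2 of 16 days 1 of the 6 genes was called, Gfra1, with Gdnf at -0.46 (adjusted p 0.103), Ret at -0.50 (0.0849) and Etv5 at -0.42 (0.0718). Without replicate 2 of 8 days 2 genes fell, Gdnf changing by -0.43 (0.0604) and Etv5 by -0.42 (0.0519), while the call of Gdnf was also lost without replicate 1 (0.0565) or 2 (0.0515) of 16 days, and Bcl6b was called without replicate 2 of 24 days (0.0418).

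Between 16 and 24 days, the ligand and both receptor parts fell again, and no transcription factor was called. These 3 of 6 compare with 33.3% of all genes called, 20.1% that fell and 13.2% that rose. Ret fell by 0.91 ± 0.17, or 1.88-fold (adjusted p 0.00358), a change that only 0.351% of genes equalled or exceeded downward. Gfra1 fell by 0.53 ± 0.12, or 1.45-fold (adjusted p 0.0101). Gdnf fell by 0.45 ± 0.13, or 1.36-fold (adjusted p 0.0290). The changes were -0.24 for Etv5 (95% interval -0.51 to 0.02, adjusted p 0.134; -0.36 in row 10363901, adjusted p 0.0339, and -0.13 in row 10438626, adjusted p 0.478), -0.26 for Lhx1 (-0.55 to 0.02, adjusted p 0.129) and 0.01 for Bcl6b (-0.37 to 0.38, adjusted p 0.983). The arrays of 24 days lay below those of 16 days in 4 of the 6 genes, as in 39.1% of all genes, and 16.5% of genes had them all above.

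The median of all genes was itself -0.16 in this second interval, and 71.7% of genes were below 0. With each array centred on its median, Gdnf changed by -0.36 and was not called (adjusted p 0.0742), and its call was also lost without replicate 1 or 3 of 16 days or replicate 1 or 2 of 24 days (adjusted p up to 0.111). On the 6 numbered arrays alone neither Gfra1 (-0.59, adjusted p 0.0569) nor Gdnf (-0.44, adjusted p 0.0854) was called.

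Over the whole span, 5 of the 6 genes were lower at 24 than at 8 days, against 54.4% of all genes called, 35.2% that fell and 19.2% that rose. Ret fell by 1.62 ± 0.17, or 3.08-fold (adjusted p 2.60e-05). Gfra1 fell by 1.21 ± 0.12, or 2.31-fold (adjusted p 2.37e-05), and Gdnf by 0.98 ± 0.13, or 1.97-fold (adjusted p 0.000148). Among the transcription factors, Etv5 fell by 0.74 ± 0.12, or 1.67-fold (adjusted p 0.000444), and Lhx1 by 0.53 ± 0.13, or 1.45-fold (adjusted p 0.00495). Bcl6b changed by -0.41 (95% interval -0.79 to -0.04) and was not called, with an adjusted p of 0.0583.

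The order of these changes, the lowest first, was Ret, Gfra1, Gdnf, Etv5, Lhx1 and Bcl6b. The 95% intervals of each neighbouring pair overlapped, and differences between genes were not tested. The share of all genes with a change at or below each was 0.793% for Ret, 3.60% for Gfra1, 7.69% for Gdnf, 14.2% for Etv5, 22.0% for Lhx1 and 28.1% for Bcl6b. Relative to the median change of all genes, which was -0.18, the changes were -1.45 for Ret, -1.03 for Gfra1, -0.80 for Gdnf, -0.56 for Etv5, -0.35 for Lhx1 and -0.24 for Bcl6b. The arrays of 24 days lay below those of 8 days in 5 of the 6 genes, all but Bcl6b, as in 45% of all genes, and 20.5% of genes had them all above. Without replicate 3 of 24 days Bcl6b changed by -0.56 and was called (adjusted p 0.0203), and without replicate 2 of 24 days its change was -0.23 (adjusted p 0.208).

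**Figure D2:**
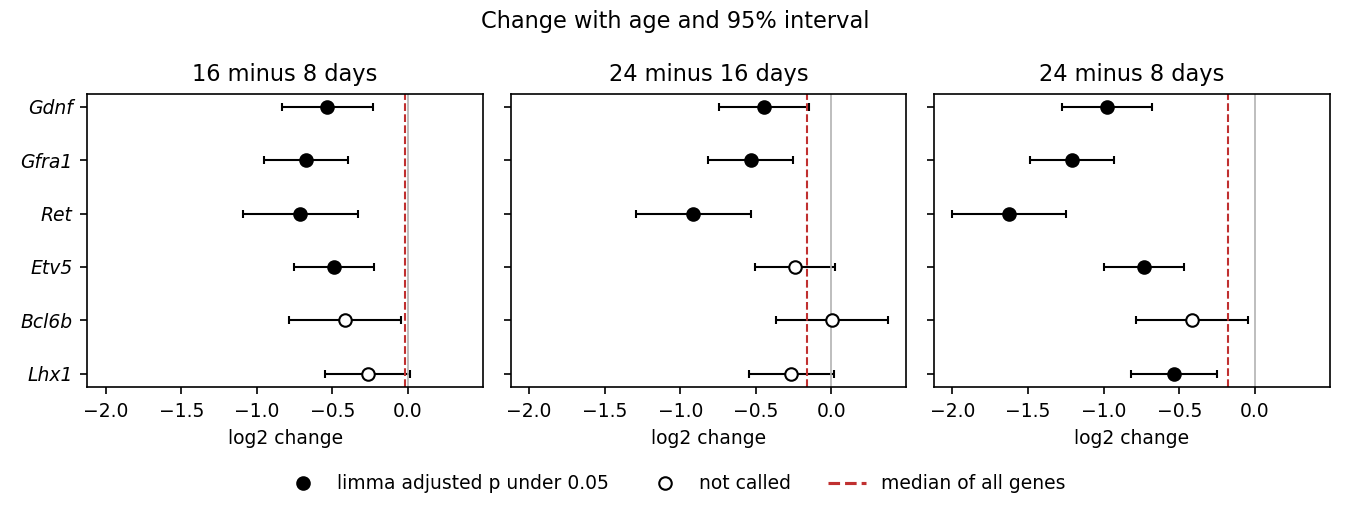
log2 change of each gene (horizontal axis) in the 3 comparisons, with its 95% interval; filled points were called by limma at an adjusted p of 0.05, and the dashed line is the median of all genes. The ligand and receptor genes are called in each panel, Etv5 from 8 to 16 and from 8 to 24 days, Lhx1 from 8 to 24 days alone and Bcl6b in no panel.

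A difference between the changes of the second and the first interval was called in none of the 6 genes by the limma test of that difference, where 5.38% of all genes were called (3.06% higher and 2.31% lower). None had an unadjusted p under 0.05. Second minus first interval, the difference was -0.20 for Ret (95% interval -0.86 to 0.46), 0.14 for Gfra1 (-0.34 to 0.62), 0.09 for Gdnf (-0.43 to 0.60), 0.25 for Etv5 (-0.21 to 0.71), 0.42 for Bcl6b (-0.22 to 1.07) and 0.00 for Lhx1 (-0.49 to 0.49). These intervals are wide, so that a loss of call from one interval to the next, as for Etv5, does not show a slower fall.

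Upstream sequence of the genes that fell was read from RefSeq promoter windows of GRCm38.p6, which held Gdnf, Gfra1, Etv5 and Lhx1; Ret and Bcl6b are named only. The 250 bases before the outermost annotated start are shown because these genes, which encode a secreted ligand and a pair of target factors, moved the same way, with motifs in capitals. The motifs searched, on both strands, were the ETS core CCGGAA, the E-box CANNTG, the cAMP response element TGACGTCA and the GC box GGGCGG, and no hits overlapped in these windows.
Gdnf, chr15:7809798-7810047, plus strand: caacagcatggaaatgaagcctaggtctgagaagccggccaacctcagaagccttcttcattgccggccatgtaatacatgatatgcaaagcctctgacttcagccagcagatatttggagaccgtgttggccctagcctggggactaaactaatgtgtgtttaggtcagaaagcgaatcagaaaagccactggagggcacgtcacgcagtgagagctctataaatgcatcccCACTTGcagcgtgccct
Etv5, chr16:22439571-22439820, minus strand: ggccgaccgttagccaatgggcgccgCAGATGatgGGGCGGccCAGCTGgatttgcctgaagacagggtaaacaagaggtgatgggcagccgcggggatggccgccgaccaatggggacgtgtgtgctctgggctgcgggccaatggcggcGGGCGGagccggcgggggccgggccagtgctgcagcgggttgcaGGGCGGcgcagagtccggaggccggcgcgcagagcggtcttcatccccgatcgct
Lhx1, chr11:84525535-84525784, minus strand: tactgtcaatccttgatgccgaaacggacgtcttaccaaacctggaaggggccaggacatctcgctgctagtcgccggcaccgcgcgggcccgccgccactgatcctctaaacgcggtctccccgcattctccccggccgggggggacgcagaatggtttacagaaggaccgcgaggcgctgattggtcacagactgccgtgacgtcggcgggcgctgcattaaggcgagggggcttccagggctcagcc

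The Gdnf window held 1 E-box, the Etv5 window 2 E-boxes and 3 GC boxes, and the Lhx1 window none of the 4 motifs. Over 32851 such windows of all genes, 66.2% held an E-box, 32.7% a GC box, 12% the ETS core and 1.55% the cAMP response element. A second Gdnf window, before an inner start, held 1 E-box, and a second Etv5 window, also before an inner start, held none of the 4 motifs. The Gfra1 window, which lies inside the annotated gene, held 3 E-boxes and 1 ETS core, the motif class that ETV5 itself binds. The 30 bases around that core, with the core in capitals, are shown because of that motif class. Binding of ETV5 to it was not tested.
Gfra1, chr19:58455537-58455566, minus strand: gagaaagtgaggCCGGAAagagaaagagga

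The relatives of the ligand were not called in any comparison. Nrtn, Artn and Pspn encode neurturin, artemin and persephin, which signal through other members of the co-receptor family, and from 8 to 24 days they changed by -0.37 (95% interval -0.70 to -0.03), -0.07 (-0.41 to 0.27) and -0.15 (-0.44 to 0.14). With blanks left missing Nrtn was called over the whole span (adjusted p 0.0410). In the second interval the co-receptors moved in different directions. Gfra2, the co-receptor of neurturin, had values of 0, 0.46 and -0.01 at 8 days, -0.26, -0.11 and -0.38 at 16 days, and 0.34, 0.67 and 0.38 at 24 days. Its 24-day arrays lay above those of 16 days, and it rose by 0.72 ± 0.15 in that interval, or 1.64-fold (adjusted p 0.00555), the interval in which Gfra1 fell. From 8 to 24 days Gfra2 changed by 0.32 (95% interval -0.01 to 0.64) with an adjusted p of 0.0919.

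Gfra3, the co-receptor of artemin, fell by 0.61 ± 0.08 from 8 to 24 days (adjusted p 9.86e-05) and by 0.33 ± 0.08 in the first interval (adjusted p 0.0125). It fell by 0.28 ± 0.08 in the second interval (adjusted p 0.0213). That call was lost with centred arrays (0.103), with blanks left missing and without replicate 1 of 16 days (0.0826). Gfra4, the co-receptor of persephin, changed by 0.31 (95% interval 0.03 to 0.59, adjusted p 0.0575) over the whole span, and Gfral, the receptor of GDF15, by -0.11 (-0.36 to 0.14). Ncam1, an alternative GDNF receptor in nerve cells, changed by -0.18 (-0.39 to 0.03). Of these 5 co-receptors and alternative receptors, 1 fell over the whole span and none rose, with a median of -0.11 beside -0.18 for all genes. Of all genes 35.2% fell and 19.2% rose over that span. With each array centred on its median Gfra2 (adjusted p 0.0396) and Gfra4 (0.0120) rose over the whole span, as did 1 co-receptor, Gfra4, without both arrays that stood apart (0.0365).

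The nearest paralogues of the 3 transcription factors were also lower at 24 than at 8 days in part. Etv1 and Etv4, the other ETS factors of the PEA3 group, fell by 0.96 ± 0.19 (adjusted p 0.00170) and 0.46 ± 0.10 (adjusted p 0.00268), against the 0.74 of Etv5. Etv1 fell in the first interval, by 0.79 ± 0.19 (adjusted p 0.0134), and Etv4 in the second, by 0.36 ± 0.10 (adjusted p 0.0200; not called with centred arrays, 0.0513, or without replicate 1 of 24 days, 0.0713). Bcl6 fell by 0.53 ± 0.19 (adjusted p 0.0401), a call lost with centred arrays (adjusted p 0.143). Lhx5 changed by -0.31 (95% interval -0.62 to 0.00, adjusted p 0.0867).

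**Figure D3:**
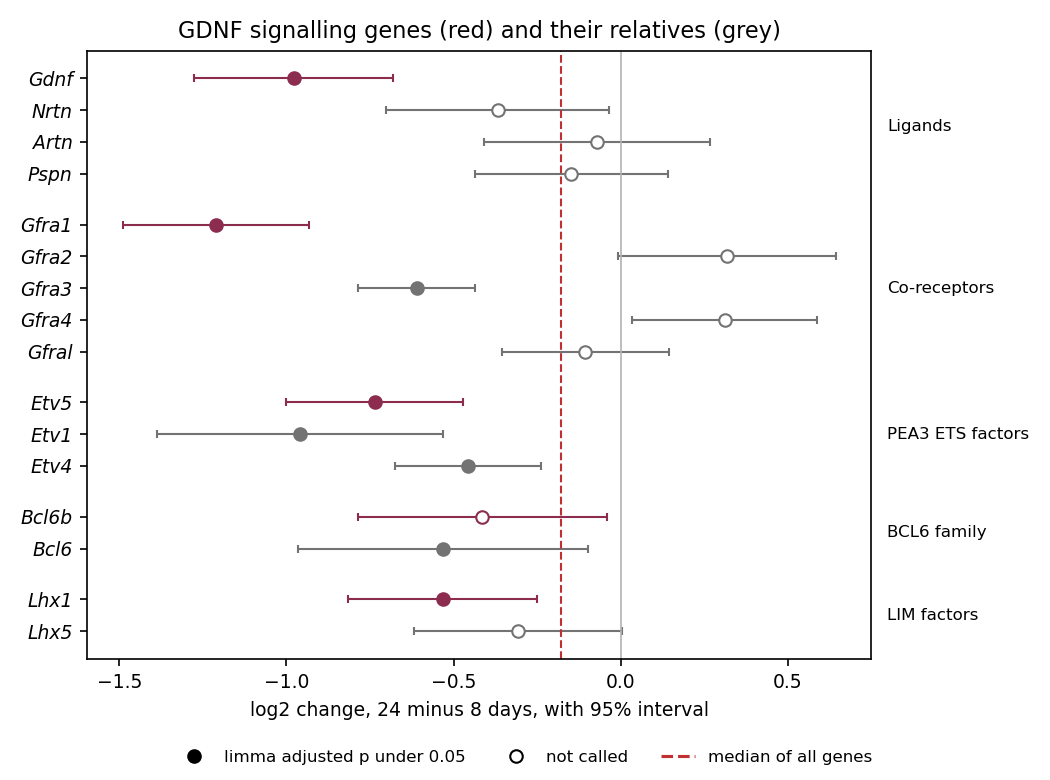
log2 change from 8 to 24 days with its 95% interval (horizontal axis) for the GDNF signalling genes other than Ret in red and their relatives in grey, with filled points called by limma and the median of all genes as a dashed line. Gfra1 lies at -1.21 and Gfra2 at 0.32, while the 3 ETS factors of the PEA3 group all lie at or below -0.46.

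Genes that relay the signal of RET were lower with age in large part. Of 26 listed, 20 were measured, of which 8 fell in the first interval, 10 in the second and 15 over the whole span, and none rose. Their median change from 8 to 24 days was -0.81, beside -0.18 for all genes. Over all genes 14.3% fell in the first interval, 20.1% in the second and 35.2% over the whole span. The counts of the lists that follow stand beside the same shares. Pik3r1, a regulatory subunit of PI3K, fell by 1.29 ± 0.21 over the whole span, Ptpn11, the phosphatase SHP2, by 1.22 ± 0.16, and the kinase Akt1 by 1.12 ± 0.12. These transcripts are made in most cell types of the testis, and changes of protein activity cannot be read from them. In the second interval 6 fell with centred arrays and 16 without both arrays that stood apart in olfactory receptor genes, and without those arrays 1 rose in the first interval.

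Most of the other genes that respond to GDNF or to MAP kinase signalling were lower at 24 than at 8 days. Of 13 listed, 12 were measured, and from 8 to 24 days 10 fell and 1 rose, with a median of -0.47. Over all genes 35.2% fell and 19.2% rose. Mycn, a MYC family factor, had values of 0.88, 1.01 and 0.83 at 8 days, 0, -0.17 and 0.13 at 16 days, and -0.80, -0.72 and -0.47 at 24 days. Its ages did not overlap, and it fell by 1.57 ± 0.12, or 2.97-fold (adjusted p 2.46e-06). Egr2, an early growth response factor, fell by 1.20 ± 0.12 (adjusted p 1.60e-05), and Spry4, a feedback inhibitor of receptor tyrosine kinases, fell by 0.69 ± 0.09 in the first interval (adjusted p 0.000366). Id4, an inhibitor of DNA binding that marks stem cells and is also transcribed in spermatocytes, was the one that rose, by 1.43 ± 0.09 over the whole span (adjusted p 9.07e-07) and by 1.25 ± 0.09 in the first interval (adjusted p 8.19e-06).

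Id4 had values of -1.12, -1.30 and -1.25 at 8 days, -0.05, 0.14 and 0 at 16 days, and 0.12, 0.21 and 0.28 at 24 days. Its 8-day arrays lay below all others, and those of 16 and 24 days overlapped. In the first interval 5 of the 12 fell and 1 rose, and in the second 6 fell and none rose. Over all genes 14.3% fell and 10.4% rose in the first interval, and 20.1% fell and 13.2% rose in the second. With centred arrays 2 of the 12 fell and 1 rose in the second interval, and with blanks left missing 3 fell. Without both arrays that stood apart 8 fell and 1 rose in it.

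Markers of the cells that receive and send the signal were counted over the same ages. The share of all genes that fell was 14.3% in the first interval, 20.1% in the second and 35.2% over the whole span. Of 20 genes of undifferentiated spermatogonia, the cells that carry GFRA1 and RET, 12 fell in the first interval, 18 in the second and 19 over the whole span, with a median of -1.19 over the span. Over the span Shisa6 fell by 1.79 ± 0.13, the zinc finger factor Sall4 by 1.65 ± 0.14, and Zbtb16, which keeps spermatogonia undifferentiated, by 1.63 ± 0.19. The mean of the list was 0.37 to 0.55 in the arrays of 8 days, -0.17 to 0.09 at 16 days and -0.66 to -0.58 at 24 days. The changes of Gfra1 (-1.21) and Ret (-1.62) lay within the range of this list, from -1.79 to -0.32, as did those of the 3 transcription factors.

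Of 14 measured genes of Sertoli cells, 7 fell in the first interval, 5 in the second (11 without both arrays that stood apart) and 11 over the whole span (8 with centred arrays), and none rose. Their median over the span was -0.76, beside -0.98 for Gdnf. Among all genes 14.3% fell in the first interval, 20.1% in the second and 35.2% over the span. Amh, a hormone that Sertoli cells make until they mature, fell by 2.36 ± 0.25. Kitl, the ligand of KIT, fell by 1.56 ± 0.11, and the transcription factor Sox9 by 1.40 ± 0.12. The mean of the list was 0.40 to 0.58 at 8 days, -0.15 to 0.11 at 16 days and -0.47 to -0.25 at 24 days. Of 8 peritubular myoid genes 6 fell in the first interval (3 without both arrays that stood apart or with blanks left missing) and 3 in the second (1 with centred arrays or with blanks left missing), where 1 rose. Over the whole span 7 fell and 1 rose, with a median of -0.77: the smooth muscle actin Acta2 fell by 0.95 ± 0.11, and Actg2 rose by 1.47 ± 0.23. The mean of this list was 0.26 to 0.38 at 8 days, -0.13 to 0.01 at 16 days and -0.19 to -0.06 at 24 days. The part of these cell types in the changes of the 6 genes was not tested.

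Other factors of the stem cell niche and upstream regulators of Gdnf followed the same direction. Of 15 measured, 9 fell in the first interval (6 fell and 1 rose with blanks left missing), 10 in the second (5 with centred arrays or with blanks left missing) and 13 over the whole span, and none rose, with a median of -0.98 over the span. Without both arrays that stood apart 7 fell in the first interval and 13 in the second. The shares of all genes that fell were 14.3% and 20.1% in these intervals and 35.2% over the span. Wnt5a, a secreted WNT ligand, fell by 1.82 ± 0.20, Gata4, a transcription factor of Sertoli and other somatic cells, by 1.61 ± 0.12, and the growth factor Igf1 by 1.57 ± 0.21. By contrast all 10 spermatocyte genes rose by 16 days, with a median of 2.54. All 10 spermatid genes rose from 16 to 24 days, with a median of 4.13. Of all genes 10.4% rose in the first interval and 13.2% in the second. Spermatocytes and later spermatids first form in mice of these ages.

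Genes of other cell types of the testis are read against the 35.2% of all genes that fell over the whole span, a share near which the Schwann cell and macrophage counts lie. Of 4 measured genes of Schwann cells and nerve 2 fell over the whole span, S100b by 1.05 ± 0.10 and Sox10 by 0.65 ± 0.11, with a list median of -0.41 and list means of -0.35 to -0.26 at 24 days against 0.13 to 0.28 at 8 days. All 8 endothelial genes fell (median -0.64), as did 4 of 8 macrophage genes (median -0.33, and 2 with centred arrays) and all 5 measured Leydig cell genes (median -2.01). With blanks left missing 4 of the 5 Leydig cell genes fell. The arrays of 24 days differed in this list, with means of -0.21, -0.11 and -1.07 in replicates 1, 2 and 3. Differentiating spermatogonia were read from 11 genes, of which 9 fell over the whole span and 1 rose (median -1.13).

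**Figure D4:**
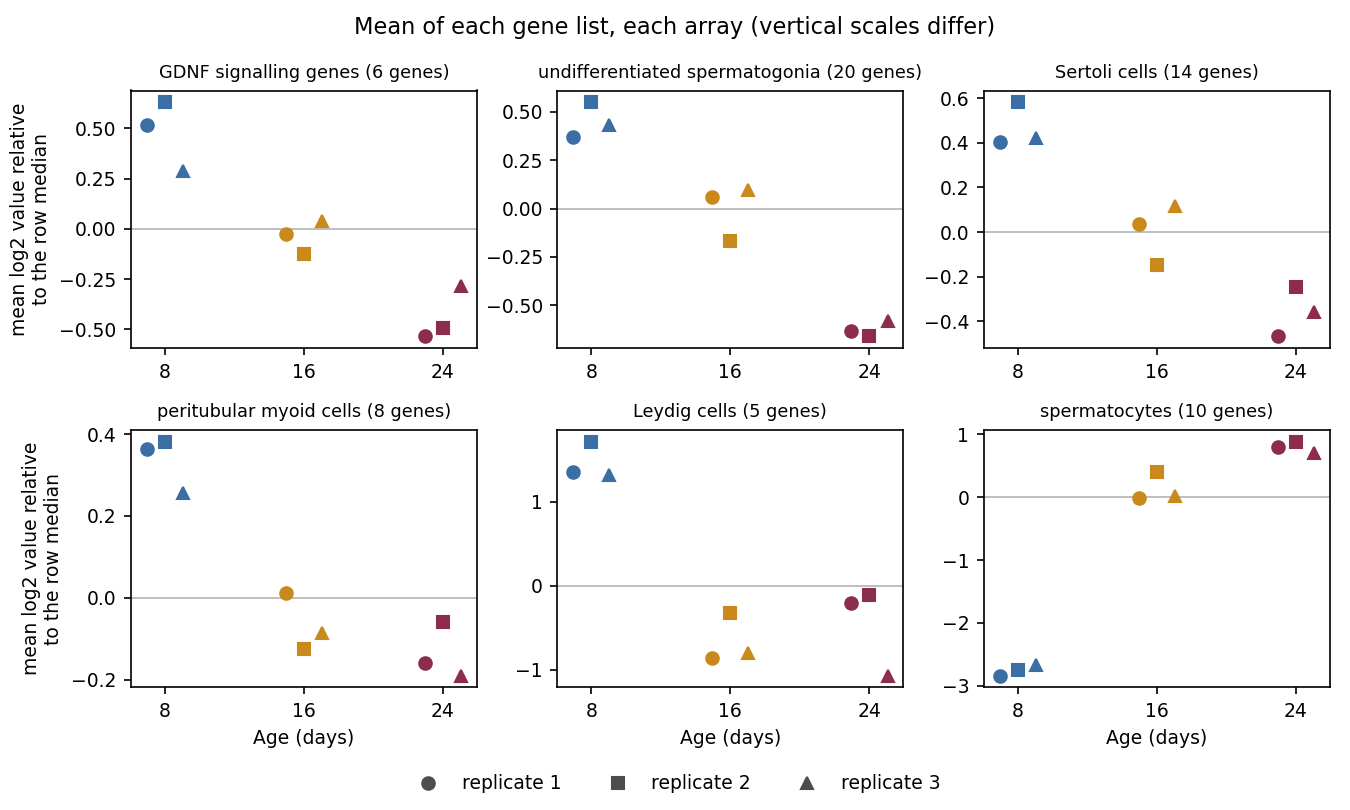
Mean log2 value relative to the row median (vertical axis, scales differ) of the GDNF signalling genes and of marker lists in every array at 8, 16 and 24 days (horizontal axis), with the replicate as the symbol. The 6 genes, spermatogonia and Sertoli cells step down at both ages and spermatocytes step up, while myoid and Leydig cell means overlap between 16 and 24 days.

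The genes most alike in pattern over the 9 arrays, which share 3 ages, are given as a description. For Gdnf these were C1qtnf1 (Pearson's r 0.994), Zfp773 (0.992) and Bmp2 (0.991), a ligand of the same superfamily that fell by 0.72 from 8 to 24 days. For Gfra1 they were Dennd2a (0.993), Tmem204 (0.993) and Egr2 (0.993), which is also on the list of GDNF-responsive genes. For Ret they were Mrps24 (0.998), Dtna (0.996) and Cenpt (0.996). For Etv5 they were Erbb4 (0.992), a receptor tyrosine kinase that fell by 1.97 over the span, Serpinf1 (0.992) and Cped1 (0.992). For Lhx1 they were Lrfn1 (0.989), Prr36 (0.988) and Gdpd2 (0.986). Bcl6b had the least close matches, Ston1 (0.954), Clec4a3 (0.941) and Rasa3 (0.927).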

How the data were processed

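Whole testis RNA was measured on 9 arrays, 3 per age. Per the labels' protocols the RNA was biotin-labelled by the Affymetrix whole-transcript sense-target method, and the array type is not given in the labels. The log2 values deposited by the authors are centred on the row median of all 9 arrays. The background correction, normalization and summary of the signals are not given in the sources used here, and the log base was taken as 2. Each of the 28815 rows had at least 1 blank cell, and with blanks taken as 0 every row's median was 0, so blanks were set to 0. Centred values hold no detection limit, and precision is limited by the 3 arrays per age.

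Rows with 1 gene symbol in the platform table (21780) were averaged per gene, which gave 19935 genes. IDs of 21689 of these rows matched the RefSeq gene table of GRCm38.p6, used for current symbols. A linear model with 1 mean per age was fitted to the gene values by lmFit and moderated by eBayes in limma 3.58.1 (R 4.3.3), with 6 residual and 3.82 prior degrees of freedom. Tests were 2-sided, with Benjamini-Hochberg adjustment over all genes and a threshold of 0.05. Errors of changes are moderated standard errors (SE) and intervals cover 95%. The fit was checked on simulated data with noise drawn independently for each gene. Such data hold no shift shared by the genes of an array, so the check does not cover that case. The 6 genes and the companion lists were chosen with earlier results of these data known. Companion genes named are up to 3 called genes per list and comparison with the largest change, and relatives of the 6 genes. Genes alike in pattern were ranked by Pearson's r over the 9 arrays.

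No label says that replicate numbers pair arrays. Replicates 1 and 2 are the arrays numbered so in their titles, and replicate 3 is the unnumbered one. Alternatives were centring each array on its median, blanks left missing, each row singly, array weights, robust eBayes, only the ages compared, a replicate block on the 6 numbered arrays, leaving out 2 arrays with raised olfactory receptor genes, and leaving out each array in turn. The 6 numbered arrays with no block were added after the data were seen. Motifs were counted in RefSeq promoter windows of GRCm38.p6. Tables were joined with pandas 2.3.3 and figures drawn with matplotlib 3.10.9 in Python 3.11.15.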

Additional observations from a re-analysis of the deposited data

How the results depend on the processing

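Over the whole span the 5 falls kept their direction and call under every alternative run, and Bcl6b, not called, was called on the 6 numbered arrays with no block (-0.61) and with single arrays left out ranged from -0.56 to -0.23. The number of genes that fell in the first interval, 4, was 2 with blanks missing, 1 without the pair of arrays high in olfactory receptor genes and 2 to 5 with single arrays left out; in the second, 3 became 5 with array weights and 1 with or without a replicate block on the 6 numbered arrays. In the first interval calls were lost for Gdnf (-0.50) and Etv5 (-0.44) with blanks missing, for Gdnf (-0.46), Ret (-0.50) and Etv5 (-0.42) without those 2 arrays and for Etv5 (-0.63) with the block, and Bcl6b was called with array weights (-0.46); leaving out single arrays gave -0.67 to -0.43 for Gdnf, -0.57 to -0.42 for Etv5 and -0.49 to -0.30 for Bcl6b. In the second interval calls were lost for Gdnf with centred arrays (-0.36), blanks missing (-0.48) and the 6 numbered arrays with or without the block (-0.44), and for Gfra1 on those 6 arrays (-0.59, adjusted p 0.105 with the block and 0.0569 with no block); Etv5 was called with array weights (-0.26) and in row 10363901 (-0.36) but not in row 10438626 (-0.13), and Lhx1 with array weights (-0.22). With single arrays left out Gdnf ranged from -0.51 to -0.37. Bcl6b, near 0, was -0.040 without the 2 arrays and -0.069 on the 6 numbered arrays with or without the block, and ranged from -0.14 to 0.19. The difference between intervals, never called, turned sign for Gdnf without the 2 arrays (-0.030; -0.012 to 0.23 with single arrays left out), for Gfra1 with array weights (-0.030) and for Lhx1 with blanks missing (-0.025), array weights (-0.031) and the 6 numbered arrays with or without the block (-0.10; -0.17 to 0.21 with single arrays left out). The causes were not tested, except that the block fits hold 3 fewer arrays.

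Same-numbered arrays deviated together with r from -0.46 to 0.45 over all genes, so the numbers were not taken as pairs. All genes called, 4914, 6645 and 1072 in the first interval, the second and their difference, were 7893, 12355 and 6037 with array weights, 1971, 1294 and 550 with the block, and 2485, 1576 and 504 with no block on the same arrays; without replicate 1 of 16 days they were 3669 in the second interval and 613 in the difference, and without replicate 1 of 24 days 3811 in the second. Of 20 genes of undifferentiated spermatogonia, 18 fell in the second interval as reported and 13 with centred arrays; other companion counts that changed by over 1.5 times stand beside them where the report gives that count.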

Other observations

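Deviations of the arrays from the mean of their age, taken over all 19935 genes, were correlated between arrays of different ages. Over all such pairs r ranged from -0.669 to 0.596. Replicate 1 of 8 days and replicate 2 of 16 days, the arrays with raised olfactory receptor genes, had an r of 0.596. Replicate 1 of 8 days had an r of -0.669 with replicate 3 of 16 days. Replicate 2 of 8 days had an r of 0.526 with replicate 3 of 16 days and -0.461 with replicate 2 of 16 days. The deviations of the 3 arrays of an age cancel in each gene, so these r values depend on one another. These r values are across genes, which are not independent replicates. In the 6 GDNF signalling genes, replicate 1 was the highest 8-day array for Ret and Lhx1 only, and at 16 days replicate 2 was the lowest for all but Lhx1.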
